A study of Caenorhabditis elegans with 12 samples.

Results

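The Major Sperm Protein (MSP) genes of Caenorhabditis elegans were followed through small RNA libraries of 4 strains. The family was taken as every gene of the count table named msp- and a number, which gave 35 of 32238 genes. RefSeq, on the genome build used (WBcel235), places all 35 and calls 31 protein coding and 4 pseudogenes (msp-37, msp-42, msp-52 and msp-71). The measurement is the number of small RNA reads on the strand opposite to each gene, so it reports antisense small RNAs and not the messenger RNA of these genes.

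MSPs are the small, abundant proteins of nematode sperm that polymerise in place of actin and drive its crawling. They are also released from sperm and act as a hormone on oocytes and gonadal sheath cells, where they bind the Eph receptor VAB-1 and promote oocyte maturation and ovulation. Their genes are transcribed in the spermatogenic germline. In that tissue a class of endogenous small interfering RNAs (endo-siRNAs) is made by the RNA-dependent RNA polymerase RRF-3 and Dicer with its double-stranded RNA-binding partner RDE-4, and is loaded on the Argonautes ALG-3 and ALG-4.

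The 4 strains were WT (the N2 laboratory strain), rde-4(ne301), which lacks RDE-4, age-1(hx546), a weak mutant of the PI3-kinase of insulin/IGF-1 signaling, and the double mutant age-1(hx546); rde-4(ne301). Each was sequenced in 3 libraries from independent populations. The worms were hermaphrodites on day 1 of adulthood, collected ahead of the appearance of embryos and kept at 20 °C. Inserts of 18 to 40 bp were sequenced for 50 bp with a protocol that favors RNAs with a 5′ monophosphate. Whole worms were used, so fewer cells of the spermatogenic germline and fewer small RNAs in each cell cannot be told apart in any value below.

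Libraries held 2449703 to 3590005 antisense counts, and 59.8% to 81.7% of these lay opposite miRNA genes. Counts opposite tRNA genes took 5.04% to 8.27% of WT libraries, 14.3% to 21.6% of rde-4, 5.63% to 23.8% of age-1 and 17.7% to 28.4% of double mutant libraries. In the same order of strains, genes without an exon on the other strand took 6.99% to 10.1%, 5.16% to 5.76%, 10.2% to 12.8% and 3.12% to 3.57%. The scaling used here, the trimmed mean of M-values (TMM) of edgeR, gave the double mutant factors of 0.432 to 0.596, against 0.948 to 1.73 in the other strains. Levels below are CPM, counts scaled to a common library size, after TMM over all 12 libraries, and other scales are named where used. As a check of the labels, known targets of the Argonaute ERGO-1, whose siRNAs need RDE-4, were summed (5 of 7 listed were in the table, 1 of them at 0 in the double mutant). Both strains with RDE-4 held 233 to 527 CPM (WT) and 279 to 329 CPM (age-1), and the strains without it 4.501 to 8.12 CPM (rde-4) and 2.18 to 9.80 CPM (double mutant).

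The genes lie in 3 blocks, a grouping made after their positions were seen. The block on chromosome II holds 15 genes over 1024 kb (4785898 to 5810330). A gap of 596884 bp within it, between msp-50 and msp-63, sets msp-63, msp-142 and msp-64 apart from the rest. The left block on chromosome IV holds 10 over 261 kb (5055631 to 5316906), and the right block on chromosome IV holds 10 over 455 kb (9689015 to 10144175). In the Ensembl annotation of this build all 35 are a single exon, 20 on the plus and 15 on the minus strand. The annotated length, which holds no untranslated region and is given here as coding length, was 384 bases for 28 of them. None had an annotated exon of another gene on its other strand, so the antisense counts hold no sense counts of an annotated exon. In 7 of the 32 pairs of adjacent genes the gap was at most 3000 bp, and in each of these 7 the genes stood on opposite strands, for example msp-63 and msp-142 with 478 bp between them. Near-identical copies can share reads, and reads with up to 50 hits were kept, so a value of a single gene is uncertain and the sum over the family is given first.

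The family drew 8081 counts over the 12 libraries. The 3 WT libraries had 547, 998 and 789 counts and those of rde-4 had 318, 238 and 222. In age-1 the counts were 1865, 1139 and 1480, and the double mutant libraries had 263, 126 and 96. The lowest WT library was above the highest rde-4 library, and the lowest age-1 library was above the highest WT library. Scaled by TMM, the summed level was 202, 226 and 205 CPM for WT (211 ± 13.2, mean ± SD, n = 3) and 119.3, 84.8 and 75.1 CPM for rde-4 (93.1 ± 23.2, n = 3). The libraries of age-1 had 549.9, 283 and 281 CPM (371 ± 155, n = 3) and those of the double mutant 191, 72.6 and 58.7 CPM (107 ± 72.5, n = 3). On this scale age-1 and WT overlapped with no other strain, while rde-4 and the double mutant overlapped with each other. Replicate 1 of age-1 and replicate 1 of the double mutant stood far above the other libraries of their strains, and in age-1 replicate 1 each of the 35 genes had its highest level of all 12 libraries.

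**Figure D1:**
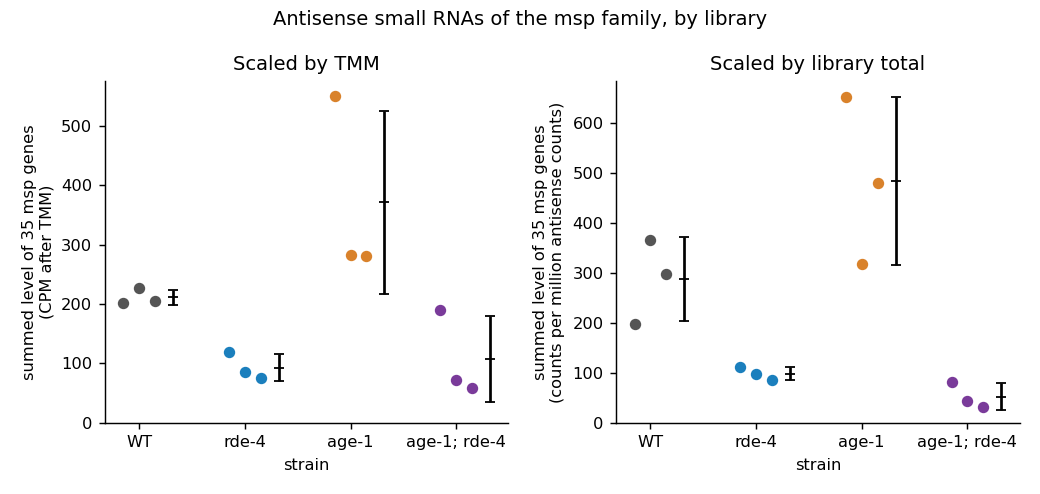
Summed antisense level of the 35 msp genes in each library (points) by strain, with mean ± SD of 3 libraries (black bars), scaled by TMM on the left and by library total on the right. On the left the rde-4 libraries sit between 75.1 and 119.3 CPM and the WT libraries between 202 and 226 CPM, and on the right the double mutant lies lowest, between 32.1 and 82.1 CPM of the library total.

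The share of the family in all antisense counts was small. WT had 0.0287% ± 0.00844, rde-4 had 0.00983% ± 0.00132, age-1 had 0.0484% ± 0.0168 and the double mutant had 0.00524% ± 0.00263 (SD, n = 3). The libraries did not overlap between rde-4 and WT, and the ratio of the means was 0.342. They did not overlap between the double mutant and age-1 either, where the ratio was 0.108. An exact permutation test of 3 against 3 libraries cannot go below p = 0.1, and it gave 0.1 in both cases (two-sided). For age-1 against WT the libraries overlapped, with a ratio of 1.68 (exact permutation p = 0.2). Among counts of genes without an exon on the other strand, WT had a share of 0.316% ± 0.0451, rde-4 one of 0.182% ± 0.0304, age-1 one of 0.421% ± 0.138 and the double mutant one of 0.158% ± 0.0916. With this denominator the ratio was 0.577 for rde-4 against WT and 0.377 for the double mutant against age-1, again with no overlap of the libraries.

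The members differed in level by several fold. Counts were spread widely, and 11 of the 35 genes held the first 50% of them, msp-33 alone 7.59% (613 counts). Among the 28 genes of equal coding length the mean level over the 12 libraries ran from 2.30 to 14.4 CPM, with a median of 5.61 CPM. By the mean over the 12 libraries, in which age-1 weighs most, the order per kb of coding length was led by msp-33, msp-53, msp-79, msp-142 and msp-81, which lie in all 3 blocks. In WT alone these 5 stood at 40.9, 32.4, 26.8, 28.1 and 22.5 CPM per kb, and msp-3 (33.1), msp-45 (27.4) and msp-40 (22.9 CPM per kb) stood among them. Within WT the libraries of msp-33 (14.5 to 17.8 CPM) lay above those of msp-53 (11.57 to 13.5 CPM), whereas those of msp-53, msp-142 (7.77 to 12.7 CPM), msp-79 (7.27 to 12.5 CPM) and msp-81 (7.01 to 11.57 CPM) overlapped. At the other end msp-37, a pseudogene of 181 bases, had 3 counts in all, every count in age-1 replicate 1. The pseudogenes together held 5.48% of the family's counts for WT, 4.499% for rde-4, 6.18% for age-1 and 5.98% for the double mutant, and msp-71, of chromosome II, had most of them.

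Counts of single genes were low, with a median for a gene of 20 per WT library, 6 per rde-4 library, 39 per age-1 library and 3 per double mutant library, and 22 of the 420 values were 0. Over the 28 genes of equal length the log2 level correlated between strains with Pearson's r from 0.66 (WT and the double mutant) to 0.88 (WT and age-1), as a description across genes that share libraries. The mean level was highest in age-1 for 34 of the 35 genes, msp-63 being the exception with a WT level of 5.78 ± 0.289 CPM and an age-1 level of 4.26 ± 2.47 CPM. WT was second for 28 genes and rde-4 lowest for 23. The place of the lowest strain depended on the scale: the double mutant was below rde-4 for 11 genes with TMM, but for 34 of 35 when scaled to library totals or to counts opposite miRNA genes.

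**Figure D2:**
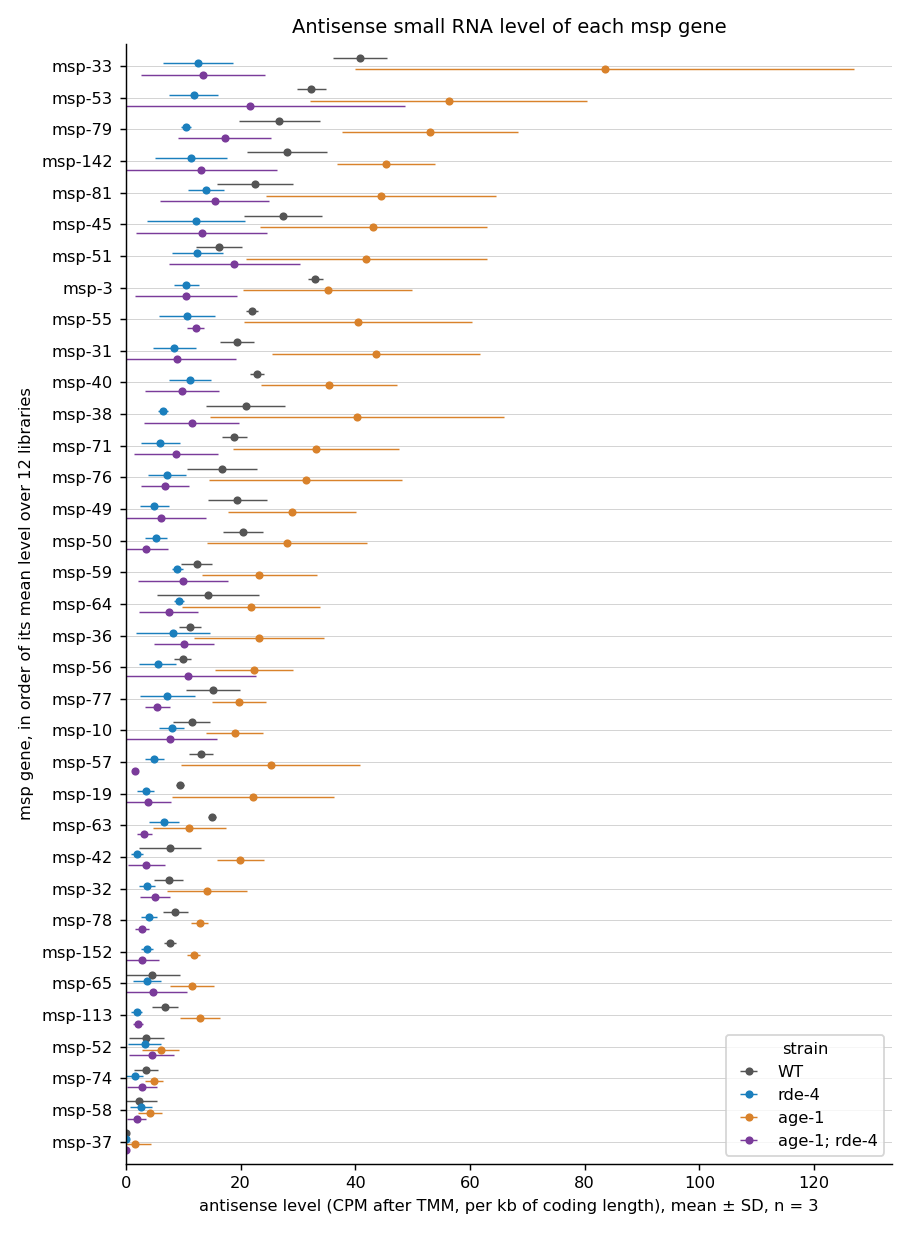
Antisense level of each msp gene in CPM after TMM per kb of coding length, as mean ± SD of 3 libraries for each strain (colors), ordered by the mean over 12 libraries. The age-1 mean of msp-33 is the highest at 83.5 CPM per kb, and the rde-4 and double mutant means lie to the left for most genes.

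The comparison of rde-4 with WT asks how the small RNAs of these genes depend on RDE-4. The family sum fell, with a log2 fold change (log2FC) of -1.20 (SE 0.39, adjusted p = 0.033). Of the 35 genes, 24 passed the filter on low counts, and 12 of these fell, against 16% of all 4797 tested genes called lower and 19.7% of tested genes without an exon on the other strand. No gene of the family rose in edgeR (also 0 before adjustment of p, and 0 in DESeq2), 17 were lower at an unadjusted p under 0.05, and all 24 fitted values were negative, from -1.98 to -0.42. The filter keeps a gene through the strain where it is high, so the counts over tested members describe the genes with more reads. Over all 35, the mean was lower in rde-4 for 33 genes, higher for msp-58, on 12 counts in these strains, and 0 in both strains for msp-37.

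The most abundant member, msp-33 (R05F9.8, chromosome II, 4892311 to 4892694, minus strand), had 17.8, 14.5 and 14.8 CPM in the WT libraries and 7.50, 3.56 and 3.38 CPM in those of rde-4. Every rde-4 library was below every WT library, and the gene fell (log2FC -1.71, SE 0.39, adjusted p = 0.0032). The largest fall was that of msp-49 (C34F11.6, chromosome II, 5194366 to 5194749, plus strand), from 5.18, 8.39 and 8.83 CPM to 3.001, 1.07 and 1.69 CPM (log2FC -1.98, SE 0.46, adjusted p = 0.0037). The smallest tested difference was at msp-51 (ZK354.5, chromosome IV, 5294957 to 5295340, minus strand), where WT libraries at 4.44, 7.26 and 7.01 CPM overlapped with rde-4 libraries at 6.75, 3.92 and 3.72 CPM (log2FC -0.42, SE 0.40, adjusted p = 0.54). These genes show the range of the family, from 3.95-fold to no detectable difference at this depth.

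Of the other abundant members, msp-53 (R13H9.4, left block of chromosome IV) fell from 12.4 ± 0.982 to 4.55 ± 1.64 CPM (log2FC -1.46, SE 0.37, adjusted p = 0.0072). For msp-79 (T13F2.10, right block of chromosome IV) the level fell from 10.3 ± 2.70 to 4.02 ± 0.335 CPM (log2FC -1.36, SE 0.38, adjusted p = 0.012). msp-142 (K05F1.2, chromosome II) fell from 10.8 ± 2.66 to 4.35 ± 2.42 CPM (log2FC -1.35, SE 0.42, adjusted p = 0.025). Of these members msp-81 (K07F5.1, right block of chromosome IV), had a WT level of 8.66 ± 2.53 CPM and an rde-4 level of 5.37 ± 1.20 CPM, a difference that missed the threshold (log2FC -0.72, SE 0.38, adjusted p = 0.20). The remaining calls were msp-3, msp-31, msp-38, msp-40, msp-50, msp-57 and msp-71, the last a pseudogene. In 17 of the 24 tested genes the libraries of the strains did not overlap, with rde-4 lower, against 21.1% of all tested genes.

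The call of the family sum rested on the libraries used. It was lost without WT replicate 1 (log2FC -1.23, adjusted p = 0.053), WT replicate 2 (-1.17, adjusted p = 0.11), WT replicate 3 (-1.25, adjusted p = 0.084), rde-4 replicate 2 (-1.13, adjusted p = 0.13) and rde-4 replicate 3 (-1.07, adjusted p = 0.069), and in a fit of all 12 libraries (-1.19, adjusted p = 0.063), within a range of adjusted p from 0.00093 to 0.13 over the alternatives. The replicate numbers were taken to pair rde-4 and WT libraries. With them as a block the sum was at -1.23 (adjusted p = 0.0030). That fit called 16 of 24 tested members lower, against 881 of all 4797 tested genes. The 12 calls became 7 without WT replicate 2, 6 without rde-4 replicate 2 and 6 with DESeq2.

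The corresponding loss in the age-1 background was the fall with most calls. Between age-1 and the double mutant the family sum fell with a log2FC of -1.78 (SE 0.47, adjusted p = 0.0044). Of 30 tested members 22 fell, against 30% of all 4003 tested genes called lower and 36.2% of those without an exon on the other strand, and none rose in edgeR (0 before adjustment, 0 in DESeq2). All 30 fitted values were negative, from -3.82 to -1.11, with a median of -1.80 beside 0.02 over all genes. Over all 35 members the mean was lower in the double mutant for each. The libraries did not overlap in 22 of the 30 tested genes, against 32.8% of all tested genes.

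The gene with the largest fall was msp-57 (R13H9.2, chromosome IV, 5062578 to 5062961, plus strand). It was at 16.5, 5.21 and 7.40 CPM in age-1 and at 0.725, 0.576 and 0.611 CPM in the double mutant, where each library held 1 count. The ratio of the scaled sums, 116 counts against 3, was 14.5-fold with a 95% counting interval of 4.83 to 71.2, and the fitted log2FC was -3.82 (SE 0.71, adjusted p = 0.00027). Its neighbor msp-53, 1716 bp away on the minus strand, was at 32.1, 14.6 and 18.0 CPM in age-1 and at 20.3, 2.88 and 1.83 CPM in the double mutant. There the double mutant replicate 1 overlapped with age-1, and the difference did not pass (log2FC -1.41, SE 0.60, adjusted p = 0.060). The smallest tested difference was at msp-56, where the log2FC was -1.11 (SE 0.60, adjusted p = 0.13).

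msp-33 went from 51.3, 23.8 and 21.1 CPM in age-1 to 9.43, 1.15 and 4.89 CPM in the double mutant. The strains did not overlap, and it fell (log2FC -2.64, SE 0.53, adjusted p = 0.00052). msp-79 fell from 20.3 ± 5.89 to 6.61 ± 3.09 CPM (log2FC -1.60, SE 0.45, adjusted p = 0.0066), and msp-142 fell from 17.4 ± 3.31 to 5.02 ± 5.09 CPM (log2FC -1.84, SE 0.54, adjusted p = 0.0089). Here msp-81 fell too, from 17.1 ± 7.70 to 5.95 ± 3.64 CPM (log2FC -1.51, SE 0.48, adjusted p = 0.015). The size of these falls depends on the scaling. With library totals the sum stood at -3.20 and all 30 tested members were lower, against 2078 of all 4003 tested genes. With the counts opposite miRNA genes as library size the sum stood at -2.998, again with 30 lower, against 1997 of all tested genes. The median of all genes moved to -1.32 and -1.15 on these scales. Relative to it the members' median was -1.82 with TMM, -1.85 with library totals and -1.81 with miRNA scaling. A change of scale moves all genes by nearly the same amount, so these relative values cannot tell the scales apart. Without replicate 1 of the double mutant the sum was at -2.66 with 29 members lower, and without replicate 1 of age-1 it was at -1.54 with 16.

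**Figure D3:**
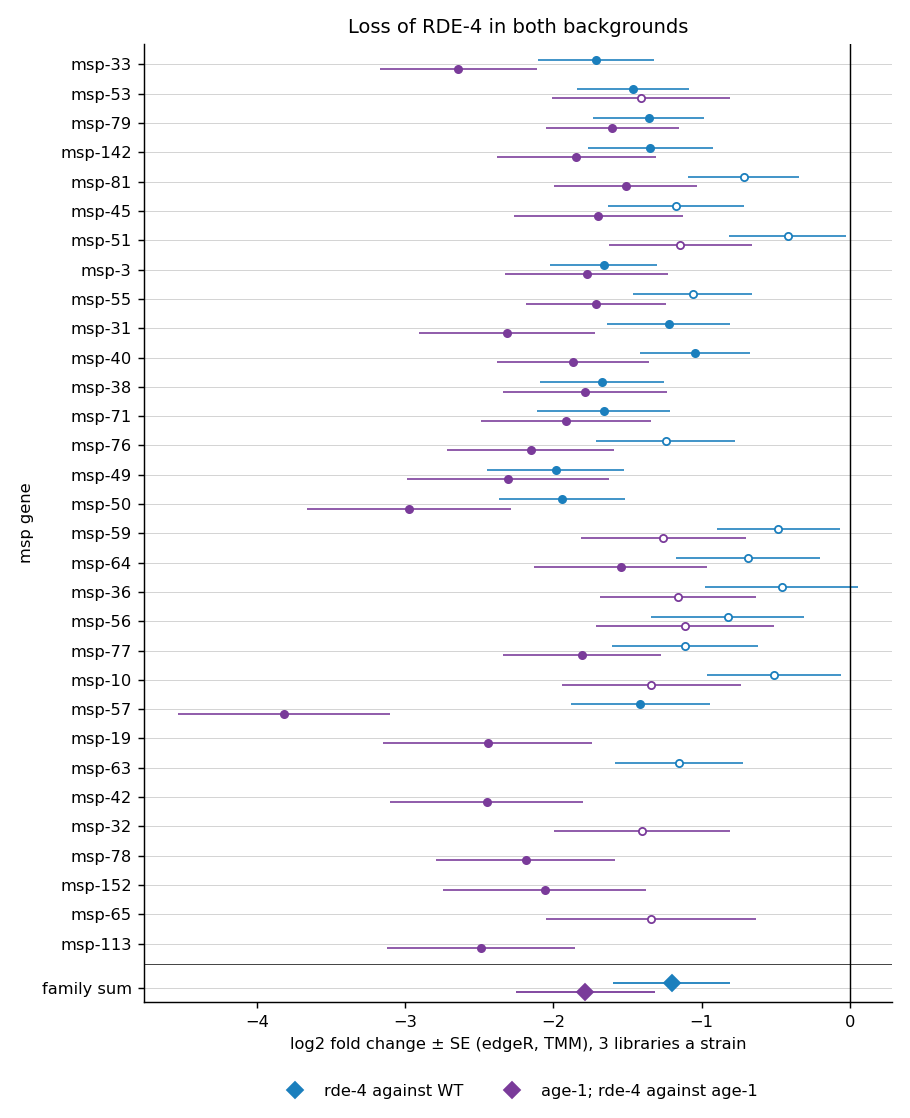
Log2FC ± SE of each tested msp gene for rde-4 against WT (blue) and for the double mutant against age-1 (purple), with the family sum as diamonds below. Filled symbols passed an adjusted p of 0.05. All values lie left of 0, with 12 filled blue and 22 filled purple circles.

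The comparisons of RDE-4 loss in the WT and age-1 backgrounds share no library. Of the 12 members called lower in rde-4, 11 were also called lower in the double mutant against age-1 (91.7% of the first list and 50% of the second), msp-53 being the exception. Of the 11 called in the age-1 background alone, 5 had not been tested in the WT background. Among the 23 members tested in both, the fall was larger in the age-1 background for 22, with medians of -1.22 and -1.78. Over all tested genes 767 of 4797 were called lower in rde-4 and 1201 of 4003 in the double mutant against age-1. Neither the overlap nor the count of larger falls was taken over all genes, so neither is shown to be particular to the family. The difference between the backgrounds was tested as the interaction in a fit of all 12 libraries. For the family sum it was -0.62 (SE 0.64, adjusted p = 0.81), and 0 of 31 tested members passed, with 1 lower before adjustment and 0 in DESeq2, against 0.154% of all 5843 tested genes. The sum ran from -1.75 without replicate 1 of the double mutant to -0.42 without rde-4 replicate 1, and it was at -1.66 with library totals and -1.65 with miRNA scaling, with adjusted p from 0.11 to 1.0 over the alternatives. The extremes were msp-57 at -2.44 (SE 0.92, adjusted p = 0.47) and msp-53 at 0.02 (SE 0.70, adjusted p = 1.0). A larger effect in 1 background was thus not shown, and with this SE a 2-fold difference in the sum lies within the error. Of the most abundant members, msp-33 stood at -0.97 (SE 0.73), msp-79 at -0.28 (SE 0.61), msp-142 at -0.52 (SE 0.72) and msp-81 at -0.84 (SE 0.64).

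In age-1 against WT the fitted values of the family leaned upward without passing the test. The sum stood at 0.68 (log2FC, SE 0.37, adjusted p = 0.18). None of the 31 tested members was called by edgeR, with 9 higher before adjustment and 3 higher in DESeq2, against 7.66% of all 5000 tested genes called higher. The median was 0.73 beside -0.17 over all genes, and 29 of the 31 values were positive. The libraries of the strains did not overlap, with age-1 higher, for 19 of the 31, against 25.5% of all tested genes. This depended on the scale. Over all 35 members it held for 19 with TMM and with miRNA scaling, but for 7 with library totals. On the scales other than TMM it was not counted over all genes. The replicate numbers were taken to pair WT and age-1 libraries too. With them as a block 7 of the 31 tested members were called higher. This is near the share over all genes, of which 1085 of 5000 were called higher in that fit. The sum was at 0.62 with the block (adjusted p = 0.12). Without age-1 replicate 3 there were also 7 calls. Without age-1 replicate 1 there were 0 calls, and the sum was at 0.44 (adjusted p = 0.50). With DESeq2 the sum passed (0.89, adjusted p = 0.048, the lowest of a range up to 0.50 over the alternatives).

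The highest fitted value was that of msp-51, with WT libraries at 4.44, 7.26 and 7.01 CPM and age-1 libraries at 25.4, 10.4 and 12.5 CPM (log2FC 1.20, SE 0.39, adjusted p = 0.054). The lowest was that of msp-63 (K05F1.7, chromosome II, 5797065 to 5797448, minus strand), with WT libraries at 5.92, 5.44 and 5.97 CPM and age-1 libraries at 7.08, 2.48 and 3.23 CPM (log2FC -0.59, SE 0.43, adjusted p = 0.29). Its neighbor msp-142 pointed the other way, from 10.8 ± 2.66 CPM to 17.4 ± 3.31 CPM (log2FC 0.54, SE 0.33, adjusted p = 0.22). msp-33 was at 0.88 (SE 0.36, adjusted p = 0.090), msp-79 at 0.84 (SE 0.35, adjusted p = 0.093), msp-81 at 0.81 (SE 0.38, adjusted p = 0.13) and msp-53 at 0.66 (SE 0.35, adjusted p = 0.17). For msp-33 the age-1 libraries (21.1 to 51.3 CPM) all lay above WT, and replicate 1 was more than 2-fold above the others.

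The same mutation was then compared in the absence of RDE-4. Between the double mutant and rde-4 the sum differed by 0.00 (log2FC, SE 0.44, adjusted p = 1.0), the 9 tested members ran from -0.26 for msp-3 to 0.61 for msp-53, and 0 passed in edgeR (0 before adjustment, while DESeq2 gave no adjusted p for any member), against 0.866% of all 3581 tested genes called in either direction. msp-53 was at 6.38, 3.21 and 4.06 CPM in rde-4 and at 20.3, 2.88 and 1.83 CPM in the double mutant, whose libraries lay on both sides of rde-4. msp-3 was at 4.04 ± 0.841 CPM in rde-4 and 4.05 ± 3.42 CPM in the double mutant (log2FC -0.26, SE 0.54, adjusted p = 0.84). msp-33, msp-142 and msp-81 differed by -0.13, -0.03 and -0.08, and msp-79 by 0.49 (SE 0.48 to 0.59, adjusted p from 0.63 to 0.98). The sum moved with the scaling: with library totals it was at -0.91 (adjusted p = 0.11) and with miRNA scaling at -0.75 (adjusted p = 0.23), within a range from 0.11 to 1.0, where the median of all genes also moved to -0.87 and -0.73. Without replicate 1 of the double mutant it was at -0.63 (adjusted p = 0.60). The difference between this effect of age-1 and that in the presence of RDE-4 is the interaction given above, which did not pass. The share of the family in all counts was lower in the double mutant, 0.533 of that in rde-4, with no overlap of libraries (exact permutation p = 0.1). The libraries overlapped with the other denominators, at a ratio of 0.870 among genes without an exon on the other strand (exact permutation p = 0.7) and 0.593 relative to counts opposite miRNA genes (exact permutation p = 0.2).

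**Figure D4:**
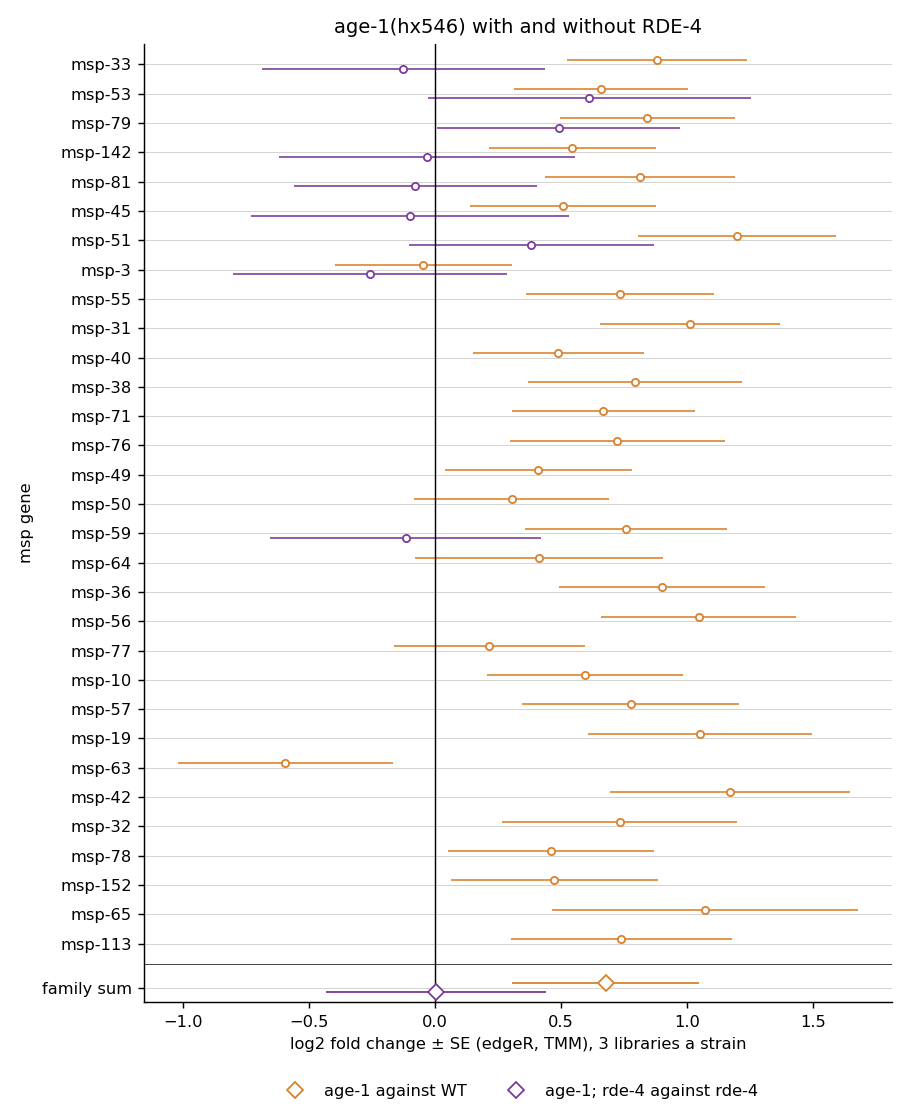
Log2FC ± SE of each tested msp gene for age-1 against WT (orange) and for the double mutant against rde-4 (purple), with the family sum as diamonds below. All symbols are open, since none passed an adjusted p of 0.05, and the sums lie at 0.68 and 0.00.

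Against WT, the double mutant was lower for part of the family. The sum was at -0.96 (log2FC, SE 0.43, adjusted p = 0.11), and 6 of 23 tested members fell, against 12.8% of all 3977 tested genes called lower. These were msp-3, msp-33, msp-50, msp-57, msp-63 and msp-77. The libraries did not overlap in 9 of the 23, with the double mutant lower, against 21.8% of all tested genes. msp-57 fell from WT levels of 4.44, 4.76 and 5.97 CPM to 0.725, 0.576 and 0.611 CPM, a ratio of 8.09 with a counting interval of 2.63 to 40.4 (fitted log2FC -2.89, SE 0.62, adjusted p = 0.0013). msp-33 fell (log2FC -1.61, SE 0.49, adjusted p = 0.017), while msp-142 was at -1.17 (adjusted p = 0.11), msp-53 at -0.62 (adjusted p = 0.48), msp-79 at -0.62 (adjusted p = 0.33) and msp-81 at -0.57 (adjusted p = 0.41). The highest value was 0.19 for msp-51 (SE 0.46, adjusted p = 0.81), which stood at 12.3, 4.61 and 4.89 CPM in the double mutant.

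This comparison depended on the scaling and on single libraries. The sum passed with library totals (-2.45), with miRNA scaling (-2.10) and with no filter on low counts (-1.23), and without replicate 1 of the double mutant (-1.65, adjusted p = 0.0034), where the adjusted p over all alternatives ran from 1.0e-06 to 0.46. The calls numbered 23 with library totals, where 2516 of all 3977 tested genes were lower, and 20 with miRNA scaling, where 1826 were. They numbered 13 without replicate 1 of the double mutant, and 3 without its replicate 2 or its replicate 3. With a library left out the calls over all genes were not counted. The median of all genes stood at -1.40 with library totals and -1.06 with miRNA scaling. The members' median relative to it was -1.10 and -1.09, beside -1.09 with TMM. A change of scale shifts all genes nearly alike, so this likeness was fixed in advance and does not say which scale is right.

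The members were also read by block. In rde-4 against WT 8 of 11 tested members fell on chromosome II, 2 of 5 in the left and 2 of 8 in the right block of chromosome IV, against 16% of all tested genes and 19.7% of those without an exon on the other strand. Summed by block, chromosome II fell (log2FC -1.41, SE 0.39, adjusted p = 0.013), while the left and right blocks of chromosome IV stood at -0.98 (adjusted p = 0.064) and -1.03 (adjusted p = 0.053). All 3 sums fell in the double mutant against age-1, with log2FC of -2.04, -1.59 and -1.59 (adjusted p = 0.0018, 0.0094 and 0.0064), with 12 of 13, 4 of 8 and 6 of 9 tested members lower, against 30% of all tested genes. In age-1 against WT the sums were at 0.55, 0.85 and 0.76 and none passed. In the double mutant against WT they were at -1.35 (SE 0.44, adjusted p = 0.028), -0.59 (SE 0.42, adjusted p = 0.34) and -0.69 (SE 0.41, adjusted p = 0.25). The difference between blocks was not tested in these fits.

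The share of chromosome II in the family's counts was also taken within each library. WT libraries had 51.0%, 49.4% and 55.4% there and rde-4 libraries 46.5%, 42.9% and 44.6%. The age-1 libraries had 46.9%, 48.6% and 47.2% and those of the double mutant 41.4%, 38.1% and 36.5%. The WT libraries were above every other library, and the double mutant libraries below every other. This ratio within a library does not depend on its scaling. Each of the 5 pairs of strains gave an exact permutation p of 0.1, the smallest possible. Adjusted over the 15 tests of 3 blocks, this p was 0.19. In each pair the libraries of the strains did not overlap, but the difference did not pass.

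**Figure D5:**
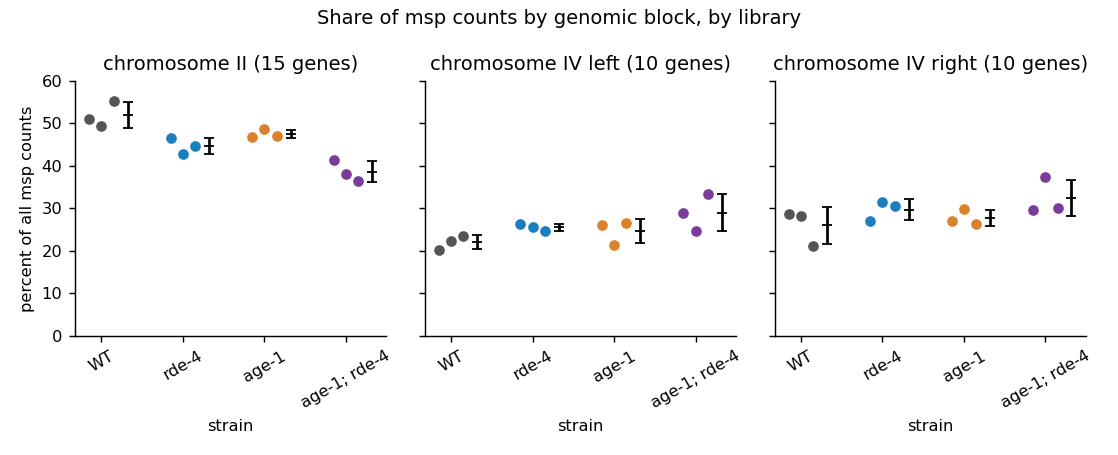
Percent of all msp counts in each library (points) held by the block on chromosome II and the left and right blocks on chromosome IV, with mean ± SD of 3 libraries (black bars). The chromosome II share lies between 49.4% and 55.4% in WT and between 36.5% and 41.4% in the double mutant.

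Genes that work with MSPs gave a wider setting. Of 17 tested genes that carry an MSP domain under other names (ssp, msd and related genes), 15 fell in rde-4 against WT (against 16% of all tested genes) with a median of -2.56, beside -1.20 for the msp genes and 0.06 over all genes. These included ssp-11 at -2.99 (SE 0.39, adjusted p = 5.4e-05) and msd-2 at -3.16 (SE 0.44, adjusted p = 7.3e-05). Between age-1 and the double mutant 16 of 17 fell (against 30% of all tested genes) with a median of -2.74, with msd-3 at -4.71 (SE 0.61, adjusted p = 7.9e-06). In age-1 against WT 2 of 18 rose, near the 7.66% of all tested genes, ssp-36 at 1.26 (SE 0.30, adjusted p = 0.033) and dct-9 at 1.20 (SE 0.36, adjusted p = 0.048). No test was made of the difference between these genes and the msp genes.

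Among genes needed to assemble MSP into the fibrous bodies of spermatocytes or to move it in sperm, 7 of 10 tested fell in rde-4 against WT, where 16% of all tested genes did. They included spe-10, a palmitoyltransferase of the organelles that carry MSP (-3.09, SE 0.39, adjusted p = 4.1e-05), and spe-6, a casein kinase needed for MSP assembly (-2.59, SE 0.42, adjusted p = 0.00026). Between age-1 and the double mutant 8 of 10 fell (against 30% of all tested genes), and in age-1 against WT 3 of 10 rose (against 7.66% of all tested genes), with spe-4, a presenilin of the same organelles, at 1.78 (SE 0.38, adjusted p = 0.031) and spe-10 at 1.49 (SE 0.34, adjusted p = 0.031).

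On the receiving side most genes had too few antisense reads. Of 16 genes of the MSP response in oocytes and sheath cells, 3 were tested in rde-4 against WT. There 1 rose, against 10.8% of all tested genes called higher. This was gsa-1, the G protein alpha subunit of sheath cell signaling (log2FC 1.12, SE 0.35, adjusted p = 0.024). The value of inx-14, an innexin of the gap junctions between sheath and germ cells, was negative (-1.18, adjusted p = 0.073). Of 3 tested in the double mutant against age-1, 2 fell, against 30% of all tested genes. They were inx-14 (log2FC -1.70, SE 0.54, adjusted p = 0.015) and oma-1, an oocyte maturation factor (-1.48, SE 0.60, adjusted p = 0.047). The other tested gene was at 1.00 (adjusted p = 0.063). Of 4 oocyte and germline markers tested there, oma-1 alone fell. Of 4 regulators of sperm gene transcription only spe-44 was tested, at -0.77 (adjusted p = 0.41) in rde-4 against WT and -0.56 in the double mutant against age-1, and it did not pass. In the small RNA pathway itself alg-3 and alg-4 fell in rde-4 against WT, with log2FC of -1.25 (SE 0.35, adjusted p = 0.013) and -1.20 (SE 0.38, adjusted p = 0.028), and no other of the 12 tested genes was called, so the 2 calls are near the 16% over all genes. In the double mutant against age-1, 3 of 11 tested genes were lower, near the 30% over all genes. The smallest adjusted p were those of alg-4 (log2FC -2.55, adjusted p = 8.4e-05) and henn-1 (log2FC -2.36, adjusted p = 0.0010). The other was alg-3 (log2FC -1.99, adjusted p = 0.0017).

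Antisense reads were also summed over 8 marker genes of the spermatogenic germline. Because gsp-3, gsp-4, spe-4 and spe-10 are in the assembly list too, their calls are counted again here. Of the 6 markers tested, 5 fell in rde-4 against WT (against 16% of all tested genes). In the double mutant 5 fell against age-1 (against 30%) and 4 fell against WT (against 12.8%). In age-1 against WT 3 rose (against 7.66%), and these were gsp-3, spe-4 and spe-10, already counted in the assembly list. The exception in both comparisons of RDE-4 loss was spe-38, a sperm membrane protein needed for fertilization, at 0.13 (adjusted p = 0.88) and -0.04 (adjusted p = 0.95), a gene named after its values were seen. The summed level was 67.0 to 87.1 CPM for WT, 16.2 to 35.6 CPM for rde-4, 117 to 249.9 CPM for age-1 and 27.1 to 43.5 CPM for the double mutant, with none at 0 over a strain. For 8 oocyte and germline markers the ranges were 42.5 to 60.7, 34.1 to 55.1, 22.6 to 36.5 and 36.1 to 43.2 CPM, and for 4 muscle markers 2.96 to 8.17, 9.47 to 21.4, 2.06 to 3.61 and 5.08 to 42.2 CPM, with 1 marker at 0 in rde-4, in the same order of strains. The 8 intestine markers summed to 3.70 to 7.79, 11.8 to 18.4, 2.65 to 12.9 and 2.90 to 13.3 CPM, and the 4 neuron markers to 2.08 to 3.33, 3.75 to 6.06, 0.590 to 2.98 and 2.18 to 4.61 CPM. Of the intestine markers 2 were at 0 in WT and 1 in each other strain. Of the neuron markers 1 was at 0 in each strain except rde-4. On these sums, and on that of muscle, the rde-4 libraries lay above those of WT. No gene of the intestine or neuron list had the counts to be tested between strains. These are small RNA counts and do not measure the number of cells, and the part of cell composition in the msp values was not tested.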

How the data were processed

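Small RNA libraries of 4 strains, 3 each, were used. The authors mapped reads with Bowtie through QuasR to WBcel235 (WS283, RefSeq annotation), allowing up to 50 hits, and counted reads opposite each gene (tool versions: not given in the sources used here). Raw counts per gene were deposited, neither normalized nor pooled, in 3 tables of 32238 genes, and the 6 columns that repeat a library held 0 differing values. There were 0 entries without a gene name. Positions and gene types came from RefSeq, and strand and exons from Ensembl release 115, both on this build, and all 35 members were matched in each.

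The test was the two-sided quasi-likelihood F test of edgeR 4.0.16 under R 4.3.3 (TMM, filterByExpr defaults, Benjamini-Hochberg over all tested genes, threshold 0.05) on the 6 libraries of each pair of strains, and on all 12 for the interaction. For the family sum the members were replaced by 1 feature. Standard errors (SE) were derived from the F statistic. CPM came from TMM over the 12 libraries, so that fold changes, fitted on 6 libraries, differ somewhat from ratios of CPM. Shares were compared with exact permutation tests in scipy 1.17.1. Counting intervals are exact binomial, cover counting error only and were used for genes with 1 to 3 counts in a strain. The fits were also run on simulated counts. The genes changed there stood above the level of most msp genes, so it does not show how well changes at msp levels are found.

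Full statistics are given for the 5 tested members with the highest mean CPM and for those with the highest and lowest fold change. Other genes come from fixed lists, with statistics for at most 2 a list and comparison, and for alg-3 besides in the double mutant against age-1. Members and lists were chosen with earlier results of these data known. Alternatives were RLE size factors, library totals, counts opposite miRNA genes as library size, no filter on low counts, DESeq2 1.42.0, a replicate block, 1 fit of 12 libraries, genes without an opposite exon, the sum without msp-33, other denominators of the share, and leaving out each library. Same-numbered libraries deviated together for rde-4 and WT (r = 0.30, 0.17 and 0.38) and for age-1 and WT (r = 0.32, 0.21 and 0.36), so numbers were taken to pair these strains. The labels number the replicates but state no pairing, and the main test held no term for it. With the double mutant, correlations ran from -0.17 to 0.25 and the number was not taken as a pairing. Sequences were not used here.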

Additional observations from a re-analysis of the deposited data

How the results depend on the processing

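The fall of the family sum in the double mutant against age-1 passed under every alternative (-3.20 to -1.53), and the interaction and the double mutant against rde-4 under none. In rde-4 against WT the members called were 6 with DESeq2 and 6 to 14 with 1 library left out, and the sum was -1.19 in the fit of 12 libraries and -1.42 to -1.07 with 1 library left out. In age-1 against WT the members called higher were 1 with miRNA scaling, 3 without filter, 3 with DESeq2, 1 in the fit of 12 libraries, 2 among genes without an opposite exon and 0 to 7 with 1 library left out, and the sum was 0.89 with DESeq2 and 0.44 to 0.88 with 1 library left out. In the double mutant against WT the members called were 23 with library totals, where 2516 of all 3977 tested genes were lower. They were 20 with miRNA scaling, where 1826 genes were lower, and 3 to 13 with 1 library left out. The sum was -2.45 with library totals, -2.10 with miRNA scaling, -1.23 without filter and -1.65 to -0.66 with 1 library left out. Why these moved was not tested, except that leaving out a library lowers the number of libraries.

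The replicate block called 7 members in age-1 against WT, where 1085 of all 5000 tested genes were higher. In rde-4 against WT it called 16, where 881 of 4797 genes were lower. It called 27 in the double mutant against age-1, where 1209 of 4003 genes were lower. In the double mutant against WT it called 10, where 532 of 3977 genes were lower. With the double mutant the number was not taken as a pairing. The block changed no call of the family sum.

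As a share of counts of genes without an opposite exon, the log2 ratio was -0.79 for rde-4 against WT, -1.41 for the double mutant against age-1, -0.20 against rde-4 and -0.99 against WT, in place of -1.55, -3.21, -0.91 and -2.46 of all counts. Of 2209 values of single members under an alternative, 1939 kept their sign and their side of the threshold. The sign turned in 72, none of which had passed before, and 2 of these passed with the other sign, msp-51 (-1.28) and msp-56 (-1.35) with library totals in the double mutant against WT. The turns were 31 in the double mutant against rde-4, 20 in the interaction, 14 in the double mutant against WT and 7 in age-1 against WT.

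Scaling also moved the calls over all genes. The share of calls that were higher went from 38.9% to 9.89% (library totals) and 11.05% (miRNA scaling) in the double mutant against age-1, from 61.3% to 1.21% and 2.36% against rde-4, and from 53.7% to 11.3% and 16.5% against WT. In age-1 against WT it went from 70.0% to 80.6% and 92.9%. For the interaction it went from 88.9% of 9 calls to 3.13% and 2.74%, and to 0% with RLE. The sum without members that have an opposite exon was not run, since no member has one. The double mutant had a median of 3 counts for a gene in a library, which limits the precision of its single members.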
